A study of Mus musculus with 6 samples.

Results

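The genes described here encode the semaphorins, plexins, neuropilins, Slits, Robos, netrins and Unc5 receptors, families best known for steering growing axons and vessels. They were chosen by gene symbol alone, which gave 46 genes of the 18193 that had a probe set of their own on the array. Where a gene had several probe sets, the one brightest on average over the 6 hearts was used. Of the 46 genes, 40 lay above the filter on dim probe sets and were tested, against 13572 genes tested in all. Ntn3, Robo2, Robo3, Sema3e, Sema5a and Unc5d lay below it, with means over the 6 hearts between 3.50 and 5.30 on the log2 intensity scale, and are given as values only.

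Transcripts were measured in whole hearts of 6 mice of the strain labelled C57B6, 1 Affymetrix array per mouse. Of these, 3 were wild-type and 3 were labelled EphB4 mutant. The array descriptions began with the letters eM for heart 3 of each genotype and with eI for hearts 1 and 2. The sources used here do not give the meaning of the letters, the kind of EphB4 mutation, or the age of the mice. The series title concerns ephrin-B2 in the heart muscle while the ventricular wall forms.

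Semaphorins bind plexins, and the secreted class 3 semaphorins mostly do so through neuropilins, which also serve as co-receptors for vascular endothelial growth factor. Slits bind Robo receptors, and netrins bind Unc5 and Dcc receptors. In the heart, Sema3c with Plxna2 and Plxnd1 is known for guiding neural crest cells into the outflow tract, Sema3d and Slit3 for shaping veins, septa and valves, and Sema6d with Plxna1 for growth of the ventricular wall. Robo4 and Unc5b are receptors of vessel lining cells.

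The hearts differed by their letters far more than by genotype. Of the variance, 60.4% lay on the first principal component, where the eM hearts scored 34.1 and 52.6 and the eI hearts -24.3 to -17.9. The excess of 3-prime over 5-prime signal of beta-actin, a sign of RNA integrity, was 0.51 and 0.77 log2 in eM and 0.28 to 0.41 in eI hearts. All 14 cardiomyocyte markers were tested, and their mean was 13.31 and 13.38 in eM and 13.19 to 13.23 in eI hearts. Ephb4 itself read 7.83, 8.20 and 8.06 in the wild-type and 8.14, 7.93 and 8.06 in the mutant hearts, so its transcript did not tell the labels apart. Xist, a transcript of female cells, read 6.73 and 6.78 in mutants 1 and 3 and 11.51 to 12.33 in the other hearts. Sex was thus partly confounded with genotype. In whole hearts, fewer cells of a type and less RNA per cell cannot be told apart.

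Guidance genes were first compared between the genotypes. None of the 40 tested genes passed an adjusted p of 0.05 in limma, against a background of 0% of all genes tested. The smallest adjusted p among the 40 was 0.9997, and 1 gene, Sema3d, had an unadjusted p under 0.05, or 2.5% against 0.936% of all genes. Of the 40 differences, 15 were above 0 and 25 below, with a median of -0.03 log2 beside 0.00 for all genes tested. They ran from -0.29 (Slit2) to 0.51 (Sema3d). The 95% confidence intervals had a median half-width of 0.35. They go with the unadjusted p, whereas calls used the adjusted p. Differences of that size, and larger ones such as that of Sema3d, could thus go uncalled. A fit that blocked on the letters gave 0 calls in limma (0% of all genes), and Sema3d was the 1 gene of 40 with an unadjusted p under 0.05 (2.5%, against 3.07% of all genes).

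**Figure D1:**
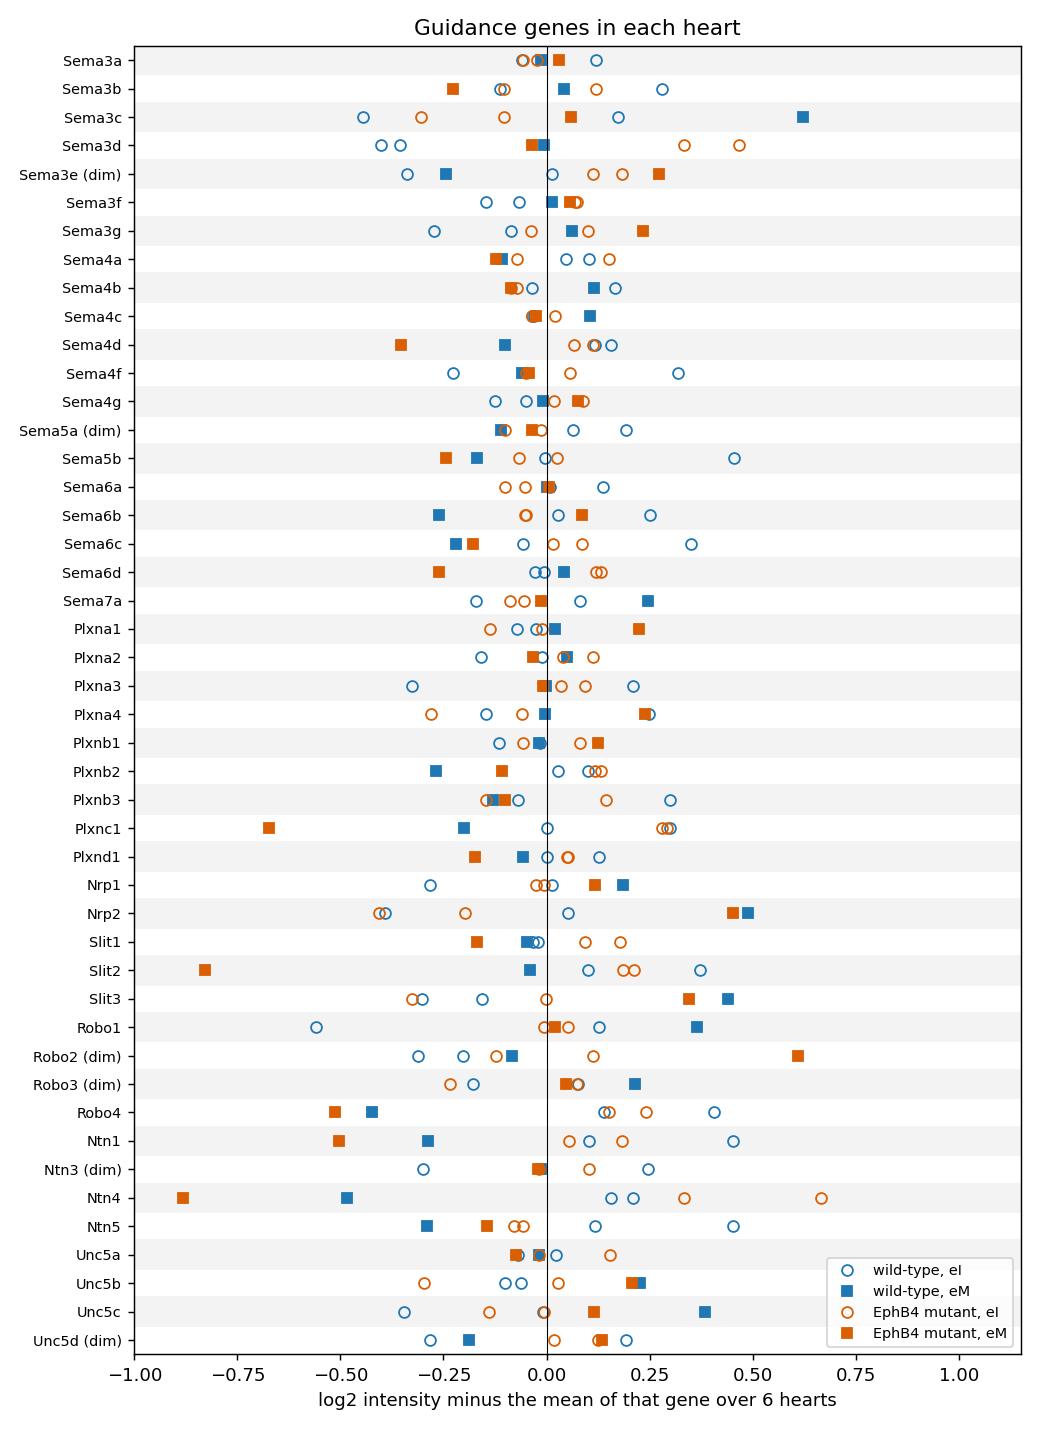
Level of each of the 46 guidance genes in each heart, as log2 intensity minus that gene's mean over the 6 hearts. Open circles are eI and filled squares eM hearts, blue wild-type and orange mutant. The squares of Robo4, Ntn1 and Ntn4 lie left of all circles and those of Nrp2 and Slit3 right of them, while blue and orange mix in most rows.

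Among the class 3 semaphorins, which are secreted, Sema3d stood farthest apart. It read 7.04, 6.99 and 7.39 in wild-type and 7.73, 7.86 and 7.36 in mutant hearts. Mutants 1 and 2 lay above all wild-type hearts, whereas mutant 3 lay just below wild-type 3. The difference was 0.51 ± 0.17 (SE, n = 3 each; limma, 95% interval 0.10 to 0.92, adjusted p = 0.9997). Among eI hearts alone the difference was 0.78, and among eM hearts -0.03. With the Xist level as a covariate it was 0.76. Sema3d is also a gene of the epicardium, the outer cell layer of the heart. Of 12 epicardial markers, 11 likewise had differences above 0, with a median of 0.31, beside 6934 of 13572 genes tested. None of the 12 was called, and 1 had an unadjusted p under 0.05 (limma, against 0.936% of all genes). Some other marker lists were one-sided too. Of liver and endoderm markers 7 of 8 lay below 0 (median -0.57), and of erythroid markers 6 of 7 above (median 0.12). The mean of the epicardial markers lay between 8.15 and 8.58 in wild-type and 8.47 and 8.67 in mutant hearts, and their part in the Sema3d difference was not tested. Like Sema3d, the epicardial markers had a larger median difference among eI (0.47) than among eM hearts (-0.07), a contrast that was not tested for the list.

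Sema3f, a repellent of neuropilin-2 bearing cells, read 9.42, 9.34 and 9.50 in wild-type and 9.56, 9.56 and 9.54 in mutant hearts. The genotypes did not overlap, but the difference was only 0.13 ± 0.09 (SE; limma, adjusted p = 0.9997), and 0.08 with the mean of its probe sets. Non-overlap between genotypes was found at 3 of the 40 tested genes (7.5%), against 4.39% of all genes, and the others were Sema4b and Sema4g. Sema3e, a ligand of Plxnd1 that acts on vessels, also did not overlap, at 5.31, 4.96 and 5.05 against 5.48, 5.41 and 5.57. Its exact permutation p was 0.1, the smallest that 3 against 3 allows, and it lay below the filter. Its other probe sets, dimmer still, gave -0.32, -0.04 and 0.06.

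The outflow tract ligand Sema3c varied among hearts of the same genotype. It read 9.23, 9.85 and 10.30 in wild-type and 9.57, 9.37 and 9.73 in mutant hearts, a difference of -0.23 ± 0.27 (SE; limma, adjusted p = 0.9997). Without wild-type 3 this difference was 0.0205. The other Sema3c probe set past the filter, dimmer with a mean of 5.62, read 5.64, 5.74 and 5.77 against 5.53, 5.495 and 5.56. There the genotypes did not overlap, and the difference was -0.19 ± 0.09 (SE, limma over all probe sets, adjusted p = 0.9999). Sema3a, a repellent of axons and of cardiac sympathetic nerves, was steady at 9.24, 9.06 and 9.10 against 9.09, 9.06 and 9.15. Sema3g, a semaphorin of vessel walls, read 5.81, 5.99 and 6.14 against 6.18, 6.04 and 6.31, a difference of 0.20 ± 0.12 (SE) with overlap. That difference was 0.11 without wild-type 1, 0.13 without mutant 3 and 0.08 with the Xist level as a covariate.

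The class 4 to 7 semaphorins, which are anchored in the membrane, lay close together in both genotypes. Sema4b read 8.41, 8.21 and 8.36 in wild-type and 8.16, 8.18 and 8.16 in mutant hearts, a difference of -0.16 ± 0.09 (SE; limma, adjusted p = 0.9997). Its other probe set past the filter differed by 0.00, and the mean of both by -0.08. Sema4g read 6.27, 6.35 and 6.39 against 6.42, 6.49 and 6.47, a difference of 0.12 ± 0.08 (SE). Sema4d, a ligand of Plxnb1, read 8.53, 8.49 and 8.27 against 8.44, 8.48 and 8.02, and the lowest heart of each genotype was its eM heart. Sema5b read 5.96, 6.42 and 5.80 against 5.90, 5.99 and 5.72, a difference of -0.19 ± 0.18 (SE) that was -0.0089 without wild-type 2. Sema6a, a ligand of Plxna2 and Plxna4, read 7.20, 7.07 and 7.06 against 6.96, 7.01 and 7.07, a difference of -0.10 ± 0.09 (SE) that turned to 0.07 with the mean of its probe sets. Sema6d, the ligand tied to growth of the ventricular wall, read 11.39, 11.41 and 11.46 against 11.53, 11.55 and 11.15. Its mutant eM heart was the lowest of all, and the genotypes overlapped.

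The receptors of semaphorins were also close. Plxna1, the receptor of Sema6d, read 7.91, 7.95 and 7.999 in wild-type and 7.97, 7.84 and 8.20 in mutant hearts. Plxna2, a neural crest receptor of Sema3c, read 7.59, 7.44 and 7.65 against 7.64, 7.71 and 7.57, and Plxna4 read 7.04, 6.65 and 6.79 against 6.51, 6.73 and 7.03. At these probe sets the class A plexins overlapped between genotypes. Another probe set of Plxna2 past the filter did not overlap, at 7.37, 7.38 and 7.35 against 7.196, 7.14 and 7.18. There the difference was -0.195 ± 0.09 (SE, limma over all probe sets, adjusted p = 0.9999), beside 0.08 at the brightest. The remaining Plxna2 probe set past the filter differed by -0.15, with overlap. Plxnb1, the Sema4d receptor, read 8.83, 8.73 and 8.83 against 8.79, 8.93 and 8.98, a difference of 0.10 ± 0.09 (SE). Plxnb2 read 10.08, 10.15 and 9.78 against 10.17, 10.18 and 9.94. In Plxnb2 the eM heart was the lowest of each genotype. Plxnd1, the plexin of vessel lining that patterns vessels and the outflow tract, read 10.73, 10.61 and 10.55 against 10.66, 10.65 and 10.43. Nrp1, a co-receptor for Sema3a and vascular endothelial growth factor, read 10.72, 11.02 and 11.19 against 10.98, 11.0005 and 11.12. Both overlapped between genotypes.

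Of the secreted Slits, Slit2 had the lowest difference of all tested members. It read 11.68, 11.41 and 11.27 in wild-type and 11.52, 11.49 and 10.48 in mutant hearts, and mutant 3 alone lay well below the rest. The difference was -0.29 ± 0.29 (SE; limma, adjusted p = 0.9997). Without mutant 3 it was 0.0561, and with the Xist level as a covariate 0.0238. Robo1, a broadly used Slit receptor, read 7.40, 8.09 and 8.33 against 8.01, 7.96 and 7.98, and wild-type 1 was its lowest heart. Robo2, another Slit receptor, lay near the bottom of the scale at 3.31, 3.42 and 3.54 against 3.74, 3.50 and 4.23. Unc5b, a netrin receptor of vessels, read 9.49, 9.53 and 9.81 against 9.61, 9.29 and 9.80. Its other probe set past the filter read 8.02, 8.03 and 8.95 against 7.66, 7.43 and 8.56. There the difference was -0.45 ± 0.37 (SE, limma over all probe sets, adjusted p = 0.9999), with overlap. In Unc5b the eM hearts lay above the eI hearts in both genotypes.

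The 12 tested members not described one by one differed between genotypes by -0.19 to 0.08 and between letters by -0.33 to 0.17. They are Ntn5, Plxna3, Plxnb3, Sema3b, Sema4a, Sema4c, Sema4f, Sema6b, Sema6c, Sema7a, Slit1 and Unc5a. Plxna3 and Plxnb3 lie on the X chromosome and differed by 0.08 and -0.07 between genotypes. Of the 6 genes below the filter, differences between genotypes ran from -0.10 (Sema5a) to 0.40 (Robo2).

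**Figure D2:**
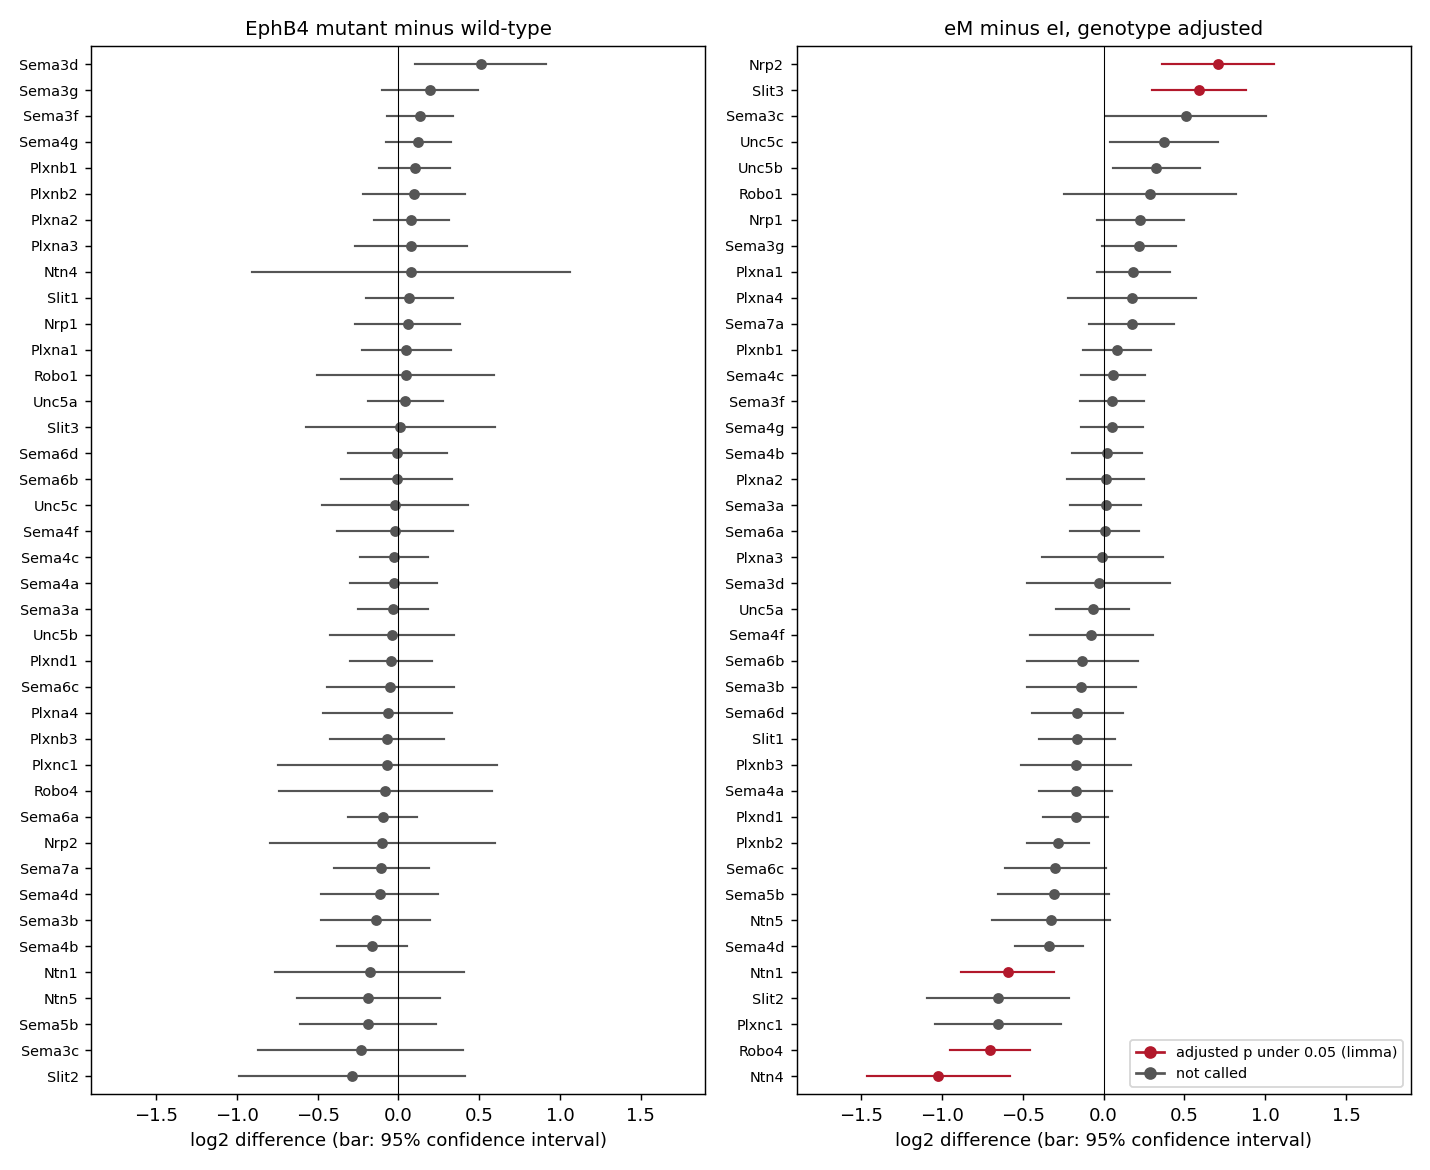
Log2 differences of the 40 tested guidance genes between genotypes (left) and between letters with genotype as a term (right), with 95% confidence intervals from limma. On the left Sema3d alone has an interval clear of 0 and no gene was called. On the right the 5 genes in red passed an adjusted p of 0.05.

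The letters of the descriptions divided the guidance genes where genotype did not. In eM hearts Nrp2 and Slit3 were higher and Robo4, Ntn4 and Ntn1 lower than in eI hearts, by 1.51 to 2.03-fold, each in both genotypes. These 5 of 40 tested genes passed an adjusted p of 0.05 in limma with genotype as a term, or 12.5%, against 10.3% of all genes tested. The share was thus close to the background. By direction, 2 rose (5%, against 4.47% of all genes) and 3 fell (7.5%, against 5.82%). With arrays centred on their medians, 1 rose and 4 fell. The median difference was -0.02 for the members and -0.03 for all genes tested, with 19 members above 0 and 21 below. Letter groups did not overlap at 19 of the 40 genes (47.5%, against 44.6% of all genes). Each genotype held 1 eM heart, so the comparison rests on 2 eM hearts against 4 eI hearts.

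Whether these genes passed the threshold depended on single hearts. Without mutant 1, mutant 2 or mutant 3, limma called 0 of the 40 genes at an adjusted p of 0.05, with 12, 9 and 11 genes at an unadjusted p under 0.05. These were 30%, 22.5% and 27.5% of the 40, against 21.8%, 19% and 15.3% of all genes. Over all genes the count then fell from 1397 to 158, 2 and 0. Without wild-type 3 it called 3 guidance genes, Ntn4, Plxnc1 and Slit2 (7.5%, against 5.82% of all genes). With the Xist level as a covariate it called 0 (limma, smallest adjusted p = 0.0674), with 10 genes at an unadjusted p under 0.05 (25%, against 21.1% of all genes). The differences themselves changed less than the calls. Over the fits that left out 1 heart, Robo4 ranged from -0.76 to -0.65, Ntn1 from -0.67 to -0.52, Nrp2 from 0.62 to 0.81 and Slit3 from 0.51 to 0.67. Ntn4 ranged more widely, from -1.38 to -0.67, the latter without mutant 3. With the Xist covariate they were -0.69 (Robo4), -0.61 (Ntn1), 0.67 (Nrp2), 0.56 (Slit3) and -1.03 (Ntn4).

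Robo4, the Robo receptor of vessel lining that steadies vessels, had the smallest adjusted p of the members. It read 6.87, 6.60, 6.61 and 6.70 in the eI hearts (wild-type 1 and 2, mutant 1 and 2) and 6.04 and 5.95 in the eM hearts (wild-type 3, mutant 3). The eM hearts lay below all eI hearts, by 0.70 ± 0.10 on the log2 scale (SE; limma, adjusted p = 0.0188), a 1.63-fold lower level. The difference was -0.70 within wild-type and -0.71 within mutant hearts. Ntn4, a netrin of basement membranes, read 6.48, 6.53, 6.99 and 6.65 in the eI hearts and 5.84 and 5.44 in the eM hearts. It fell by 1.02 ± 0.18 (SE; limma, adjusted p = 0.0277), a 2.03-fold lower level, with -0.67 within wild-type and -1.38 within mutant hearts. The other probe set of Ntn4, below the filter with a mean of 4.90, differed by -0.21.

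Ntn1, the netrin that attracts or repels axons through Dcc and Unc5 receptors, read 11.92, 11.57, 11.65 and 11.52 in the eI hearts and 11.18 and 10.96 in the eM hearts. It fell by 0.59 ± 0.12 (SE; limma, adjusted p = 0.0353), or 1.51-fold, with -0.57 within wild-type and -0.62 within mutant hearts. Its other probe set, below the filter with a mean of 4.95, differed by 0.20. The remaining tested netrin, Ntn5, differed by -0.33 (limma, adjusted p = 0.202).

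Nrp2, the neuropilin of veins, lymphatics and Sema3f signalling, went the other way. It read 7.91, 8.35, 8.10 and 7.89 in the eI hearts and 8.79 and 8.75 in the eM hearts, and all eI hearts lay lower. The difference was 0.71 ± 0.14 (SE; limma, adjusted p = 0.036), a 1.63-fold higher level. Slit3, the Slit known for roles in the diaphragm and in venous and septal development of the heart, read 7.24, 7.10, 7.40 and 7.07 in the eI hearts and 7.84 and 7.74 in the eM hearts. It rose by 0.59 ± 0.12 (SE; limma, adjusted p = 0.0358), or 1.51-fold, with 0.67 within wild-type and 0.51 within mutant hearts.

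**Figure D3:**
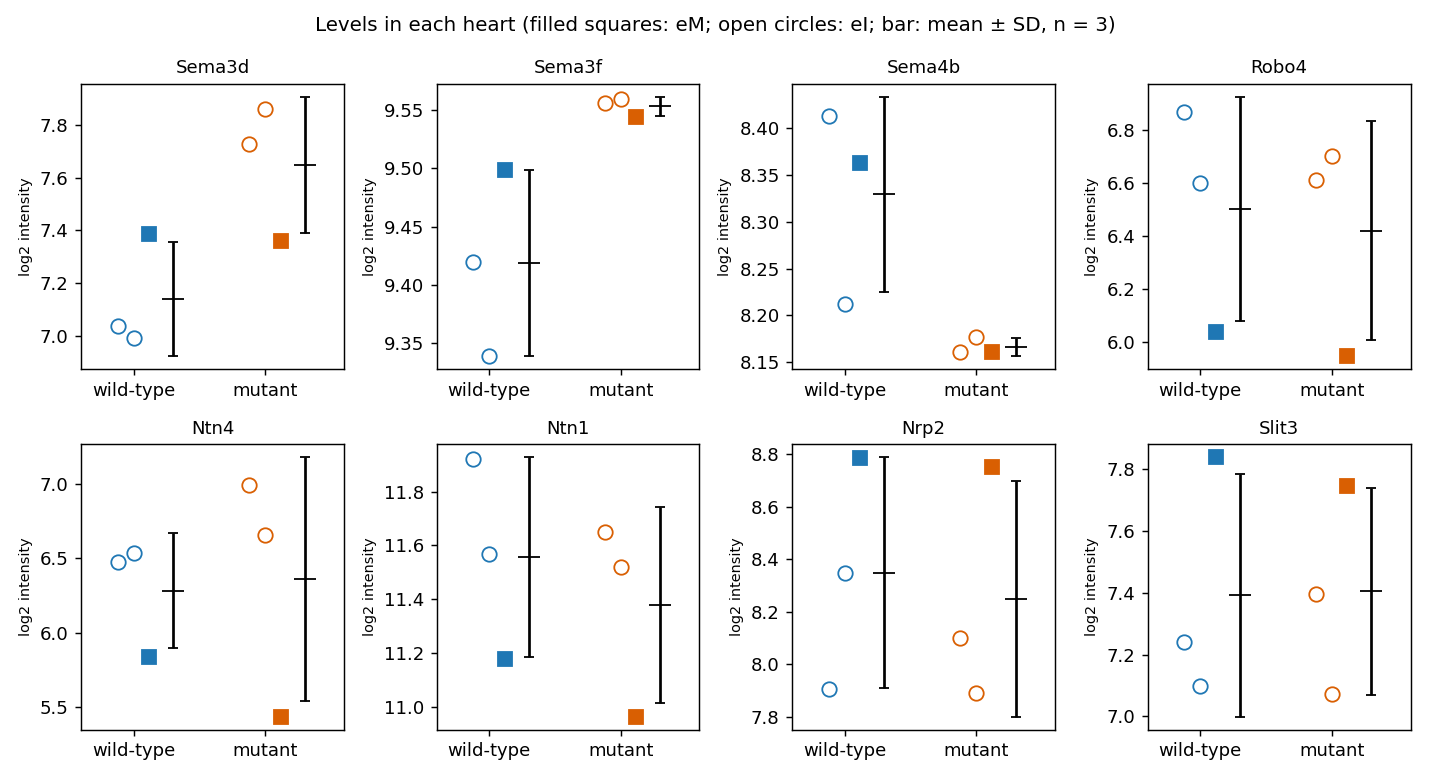
Log2 intensity in each heart for 3 genes of small p between genotypes (Sema3d, Sema3f, Sema4b) and for the 5 genes called between letters. Open circles are eI and filled squares eM hearts, and bars give mean ± SD of the 3 hearts of a genotype. In the 5 called genes the square of each genotype lies beyond its circles.

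The start regions of the called genes were unlike in their CpG content. Stretches of up to 250 bases before the start site are shown for the 4 called genes that the RefSeq promoter table (GRCm38.p6) holds and for Sema3d, with CpG dinucleotides in capitals; for Robo4 and Sema3d the stretch ends where the annotated gene begins. All 5 genes lie on the plus strand, at chr9:37401722-37401901 for Robo4, chr10:93640799-93641048 for Ntn4, chr1:62703067-62703316 for Nrp2, chr11:35121206-35121455 for Slit3 and chr5:12382916-12383160 for Sema3d.
Robo4: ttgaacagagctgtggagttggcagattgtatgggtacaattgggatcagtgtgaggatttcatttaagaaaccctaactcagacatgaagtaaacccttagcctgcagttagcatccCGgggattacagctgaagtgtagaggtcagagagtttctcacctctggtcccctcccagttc
Ntn4: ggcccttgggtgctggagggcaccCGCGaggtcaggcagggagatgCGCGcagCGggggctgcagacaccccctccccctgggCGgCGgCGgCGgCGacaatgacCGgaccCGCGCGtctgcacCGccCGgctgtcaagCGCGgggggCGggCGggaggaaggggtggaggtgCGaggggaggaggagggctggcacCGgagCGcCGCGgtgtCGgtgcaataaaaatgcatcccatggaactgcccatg
Nrp2: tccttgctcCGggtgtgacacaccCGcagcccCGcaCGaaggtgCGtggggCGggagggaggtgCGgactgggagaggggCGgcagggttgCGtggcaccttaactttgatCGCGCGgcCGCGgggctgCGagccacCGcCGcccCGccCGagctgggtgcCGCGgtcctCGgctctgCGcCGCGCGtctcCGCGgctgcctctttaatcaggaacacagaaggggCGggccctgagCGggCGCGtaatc
Slit3: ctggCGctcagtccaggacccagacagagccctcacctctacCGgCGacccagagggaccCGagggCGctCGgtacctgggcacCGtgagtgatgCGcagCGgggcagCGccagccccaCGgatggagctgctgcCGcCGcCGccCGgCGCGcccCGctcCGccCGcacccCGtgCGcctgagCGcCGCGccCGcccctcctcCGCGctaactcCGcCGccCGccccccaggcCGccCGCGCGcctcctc
Sema3d: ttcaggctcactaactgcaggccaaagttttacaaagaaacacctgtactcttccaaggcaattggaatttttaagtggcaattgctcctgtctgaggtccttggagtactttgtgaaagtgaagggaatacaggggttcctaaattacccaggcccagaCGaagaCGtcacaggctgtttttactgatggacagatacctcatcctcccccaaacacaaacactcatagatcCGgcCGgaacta
The full 250-base windows held 26 CpG in Ntn4, 32 in Nrp2 and 35 in Slit3, but 2 in Robo4 and 4 in Sema3d. Over all 32851 start sites of that table the median was 6, and 97% of them held fewer CpG than Slit3 and 18.8% fewer than Robo4. Genes that rose and genes that fell were thus both among the CpG-rich ones. Searched on both strands, the letters TATAAA were in none of these 5 windows, and in 12.4% of all windows of that length. No methylation was measured here, and the array data do not bear on how these stretches act.

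Further genes had a small unadjusted p between letters but missed the adjusted threshold. Plxnc1, the receptor of Sema7a, read 9.31, 9.01, 9.30 and 9.29 in the eI hearts and 8.81 and 8.34 in the eM hearts, a difference of -0.65 ± 0.16 (SE; limma, adjusted p = 0.0547). Plxnc1 differed by -0.35 without mutant 3, and it passed the threshold in 8 of 14 alternatives. Slit2, with values given above, differed by -0.65 ± 0.18 (SE; limma, adjusted p = 0.073), with -0.28 within wild-type and -1.03 within mutant hearts, the values that remain without mutant 3 and without wild-type 3. Slit2 and Slit3 thus lay on opposite sides of 0. Sema4d differed by -0.34 ± 0.09 (SE; limma, adjusted p = 0.0591) and Plxnb2 by -0.28 ± 0.08 (SE; limma, adjusted p = 0.0736). In both, the eM hearts lay below all eI hearts.

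Of the 3 tested Unc5 receptors of netrins, Unc5a differed by -0.07 between letters. Unc5b differed by 0.33 ± 0.11 (SE; limma, adjusted p = 0.11), and Unc5c, which read 8.19, 7.86, 8.20 and 8.06 in the eI hearts and 8.59 and 8.32 in the eM hearts, by 0.38 ± 0.14 (SE; limma, adjusted p = 0.132). Without wild-type 3 the difference of Unc5c was 0.19. Sema3c differed by 0.51 ± 0.20 (SE; limma, adjusted p = 0.154) with overlap, since mutant 3 (9.73) lay below wild-type 2 (9.85), and it was 0.26 without wild-type 3. Among the members of known cardiac role, Plxna1 differed by 0.18 and Plxnd1 by -0.17 (limma, adjusted p = 0.243 and 0.22).

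Several genes gave different sizes by probe set. When each of 27022 probe sets was tested on its own, an alternative chosen after seeing the data, limma called 12 of the 69 tested probe sets of guidance genes, from 10 genes. Background in that test was 11.7% of all probe sets. For Nrp1, the brightest probe set differed by 0.23 (limma, adjusted p = 0.255), but the other 3 rose by 1.03, 0.61 and 1.56 (adjusted p = 0.0118, 0.0274 and 0.00501). The last of these read 6.91, 6.45, 6.93 and 6.85 in the eI hearts and 8.14 and 8.55 in the eM hearts. For Nrp2 the brightest probe set was called, and the others differed by 0.51 and 0.35 without a call (limma, adjusted p = 0.0635 and 0.127). Unc5b differed by 0.33 at its brightest probe set and rose by 0.97 at the other (limma, adjusted p = 0.00604). Sema4d differed by -0.34 at both brighter probe sets and fell by 0.76 at the dimmest (limma, adjusted p = 0.0138). Plxnc1 gave -0.65 and a called -0.72 (limma, adjusted p = 0.0158), so its 2 probe sets past the filter were alike. Those of Plxnc1 below the filter ranged from -0.42 to 0.02. Sema6d gave -0.16 and -0.14 at probe sets that were not called and fell by 0.59 at a dim one (limma, adjusted p = 0.0377). Slit2 ranged from -0.79 to -0.08, and none of its probe sets was called.

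**Figure D4:**
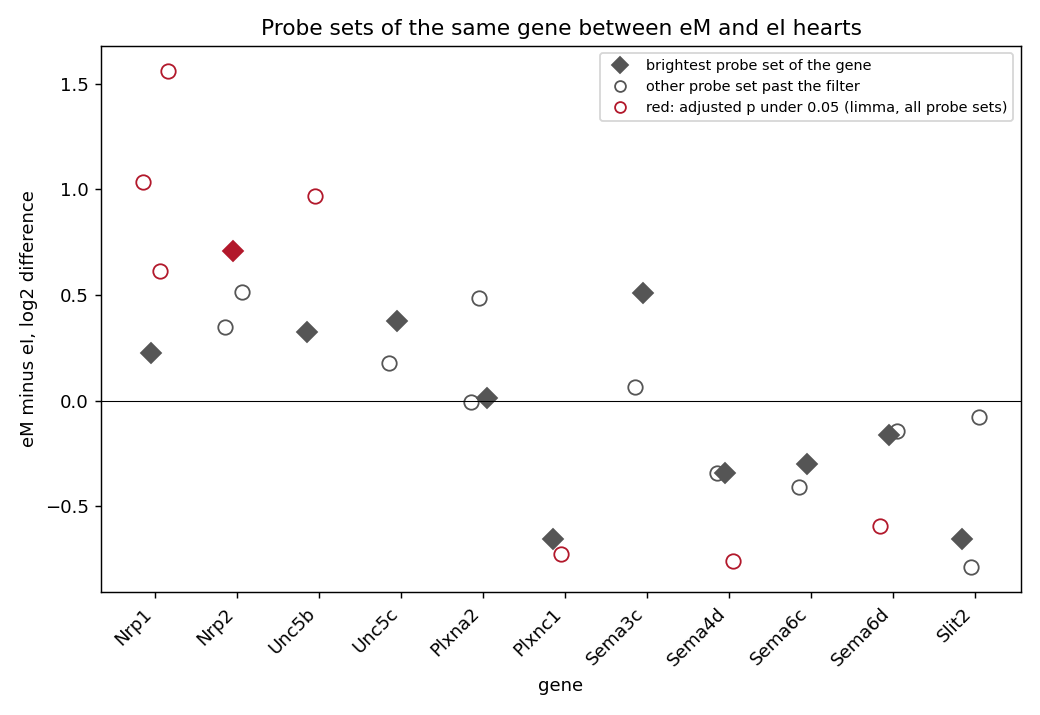
Difference between eM and eI hearts at each probe set past the filter, for 11 guidance genes with several probe sets. Filled diamonds are the brightest probe set of a gene, open circles the others, and red marks an adjusted p under 0.05 over all probe sets. The probe sets of Nrp1 spread from 0.23 to 1.56 and those of Unc5b from 0.33 to 0.97, on the same side of 0.

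Markers of other cell types were compared between letters too, where 4.47% of all genes were called higher in eM hearts and 5.82% lower. Of 11 endothelial and endocardial markers, 2 were called lower in eM hearts, Emcn and Esam, surface proteins of vessel lining, which fell by 1.18 and 0.71 (limma, adjusted p = 0.013 and 0.016), and none was called higher. Cdh5, a defining cadherin of that lining, differed by -0.24. The endothelial differences lay above 0 at 4 markers and below at 7, with a median of -0.21. Within wild-type hearts the median was -0.0004 and within mutant hearts -0.34. The list's mean lay at 9.16 and 9.20 in eM against 9.30 to 9.37 in eI hearts. The part of these markers in the lower Robo4 level was not tested. Of 11 tested fibroblast and cushion markers, 2 were called lower and 1 higher, with a median of -0.62, and their mean was 8.88 and 9.57 against 9.80 to 10.20. Of 12 epicardial markers, 3 were called higher (Lrrn4, Wt1 and Tbx18) and 1 lower (Msln). The epicardial differences lay above 0 at 7 markers and below at 5, with a median of 0.02. Macrophage markers were called lower at 5 of 9 and erythroid markers at 3 of 7, with medians of -1.14 and -1.01. Smooth muscle and pericyte markers were called higher at 3 of 9, and neural crest, neuron and Schwann cell markers at 1 of 8. Liver and endoderm markers were called lower at 1 of 8, and cardiomyocyte markers were called higher at 3 and lower at 1 of 14. Their part in the differences of the guidance genes, like that of the RNA integrity signs, was not tested.

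Partners of the guidance genes were described from lists. No partner passed the adjusted threshold between genotypes, and the medians were -0.03 for 19 other receptors and co-receptors, -0.02 for 6 other ligands and 0.00 for 43 intracellular transducers. Between letters, 3 of the 19 receptors rose and 1 fell, beside 4.47% and 5.82% of all genes. The lists are short, and their counts are given as a description. Flrt3, a membrane protein that binds Unc5 receptors and Robo1, rose by 0.65 (limma, adjusted p = 0.018), the neuregulin co-receptor Erbb2 by 0.40 (adjusted p = 0.049) and the adhesion molecule L1cam by 0.57 (adjusted p = 0.041). Itgb1, an integrin chain used by Sema7a, fell by 0.71 (limma, adjusted p = 0.013). Dcc and Neo1, the other netrin receptors, differed by 0.00 and 0.06.

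Among other ligands, Slitrk5 rose by 0.36 and Rgma, a ligand of Neo1, fell by 0.34 (limma, adjusted p = 0.041 and 0.044). Of the transducers, Rnd2, a small GTPase that binds plexins, rose by 0.81 and the adaptor Nck1 fell by 0.66 (limma, adjusted p = 0.02 and 0.026). No other of the 43 transducers was called, and the median of the list was 0.08.

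Whether the genotype difference was unlike in eI and eM hearts was tested with an interaction term. Limma called 0 of the 40 guidance genes (smallest adjusted p = 0.642, for Sema3d) and 0% of all genes, and 6 guidance genes had an unadjusted p under 0.05 (15%, against 7.12% of all genes). The genotype difference had the same sign in eI and eM hearts at 18 of 40 genes (45%, against 44.6% of all genes). The difference between letters had the same sign in wild-type and mutant hearts at 27 of 40 genes (67.5%, against 73.5% of all genes). With 1 eM heart per genotype, the spread in this test came from the eI hearts alone.

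Some members are neighbours in the genome (RefSeq, GRCm38.p6). Sema3d, Sema3a, Sema3e and Sema3c lie in that order on chromosome 5, between positions 12383161 and 17730268. Their differences between genotypes were 0.51, -0.03, 0.38 and -0.23. None was called, and Sema3e lay below the filter and was not tested. Robo4 and Robo3 lie side by side on chromosome 9, Robo4 ending at 37414023 and Robo3 beginning at 37416045. Robo4 fell between letters. Robo3 lay below the filter and differed by 0.20, but its other probe set, also below the filter, differed by -0.34.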

How the data were processed

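RNA of 6 mouse hearts was hybridised to Affymetrix mouse arrays after biotin labelling, per the labels' protocols. Values were deposited as log2 intensities, which the authors made with RMA, per the submitters' processing notes, with no version or steps given in the sources used here. No scanner files were used, so signal over background is unknown and background correction could not be varied. The number of arrays, 3 per genotype, limits the precision.

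Titles gave the genotype, and descriptions gave the letters. Of 45101 probe sets, 64 controls were left out. The platform annotation gave 1 gene for 34945, several for 932 (not used) and none for 9160. The dimmest 40% of probe sets by mean (under 5.38) were dropped, leaving 27022. The brightest probe set naming a gene alone stood for it. All 46 member IDs matched the RefSeq gene table of GRCm38.p6.

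Genotypes were compared without a covariate and letters with genotype as a term, in limma 3.58.1 under R 4.3.3, with moderated two-sided tests from lmFit and eBayes and p-values adjusted by Benjamini-Hochberg over 13572 genes (threshold 0.05). Errors of differences are standard errors of those fits. The fits were tested on simulated data. Python 3.11.15 with matplotlib 3.10.9 drew the figures.

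Members, lists and tests were chosen with earlier results of these data known. Values in each heart were given for the 8 members of smallest p between genotypes, the 12 of smallest p between letters, and 20 with a textbook role in heart or vessels. From each list of partners, up to 4 called genes per direction were named. The members described by probe set, the neighbouring genes and the named markers were picked with their values in view. Of 178 list genes, 171 had a probe set.

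Deviations of same-numbered hearts from their group means correlated at 0.18, 0.36 and 0.74 for numbers 1, 2 and 3. Number 3 is the eM pair, and hearts of unlike number were not compared, so these values do not show that the hearts are pairs. The numbers of the titles were taken as pairs in an alternative fit, with the replicate number as a block. Other alternatives were no filter, a filter dropping 60% of probe sets, arrays centred on medians, quantile normalization, the mean of a gene's probe sets, eBayes with trend and robust, the letters as a block, eI hearts alone, the Xist level as a covariate, and leaving out each heart.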

Additional observations from a re-analysis of the deposited data

Results flagged for a closer look

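Single values that stood apart were sought among the 4 eI hearts for each of the 46 genes. The highest or lowest heart was far from the other eI hearts, relative to their range, in 3 genes. Chance alone flags about 1 in 20 such groups, and 3 of 46 is near that rate. Nrp1 read 10.72 in wild-type 1 against 10.98 to 11.02 in the other eI hearts. Plxnc1 read 9.01 in wild-type 2 against 9.29 to 9.31. Sema4c, a membrane semaphorin that binds Plxnb2, read 8.62 in mutant 2 against 8.57 in each of the other eI hearts, a gap of small size.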

How the results depend on the processing

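Between genotypes, 0 guidance genes were called by limma under each alternative run, including the replicate block (0, smallest adjusted p = 0.9993) and the letters as a block (0, smallest adjusted p = 0.9974). The block of replicate numbers changed no call. Signs turned for Sema6a with the mean of its probe sets (0.07) and for Slit2 with the Xist level as a covariate (0.0238). Leaving out single hearts gave -0.46 to 0.0561 for Slit2 and -0.51 to 0.0205 for Sema3c.

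Between letters, the count of 5 (10.3% of all genes) was 2 with no filter (Robo4 and Ntn4; 4.83%), 8 with trend and robust (13% of all genes), 10 with the mean of a gene's probe sets (12.6%), 10 with every probe set tested (11.7% of probe sets) and 0 with the Xist covariate (1.35%), and 0 to 6 when single hearts were left out. With no filter, 878 of all genes were called, against 1397. With arrays centred on their medians, 1 guidance gene was called higher and 4 lower, and Nrp2 was not called. Called differences kept their sign in each fit. The fit that leaves out 1 eM heart takes the remaining one to vary like the other hearts. The interaction called 0 in the 3 alternatives run. A block of replicate numbers could not be fitted to the letters, since number 3 is the eM pair. The cause of these shifts was not tested.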
